A study of Mus musculus with 18 samples.

Results

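A group of 10 genes of the lung endothelium and of the signals it answers to were followed across lungs of mice with altered sterol regulation in the respiratory epithelium. These genes, *Pecam1*, *Cdh5*, *Emcn*, *Kdr*, *Flt1*, *Tek*, *Tie1*, *Car4*, *Apln* and *Vegfa*, were taken by name, as the probe sets that the array annotation assigns to 1 of these symbols alone. This gave 10 probe sets, 1 for each of the 10 genes, among 35556 probe sets and 19938 genes on the array. All 10 passed the filter on low values in every fit. RNA of whole lung had been hybridized to Affymetrix Mouse Gene 1.0 ST arrays, and values are log2 expression as deposited, so that a difference of 1 is 2-fold.

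The 18 arrays fall into 6 groups of 3 lungs. There were *ScapΔ/Δ* lungs and their controls at embryonic day (E) 18.5 and at postnatal day (PN) 1, the day of birth, while *Insig1/2Δ/Δ* lungs were taken with their own controls at E17.5. In *ScapΔ/Δ* mice, SP-C-rtTA and the (tetO)7CMV-Cre transgene removed floxed *Scap* from respiratory epithelium after the dams had received doxycycline early in gestation. Their controls were *Scap* flox/flox littermates without rtTA or without Cre, from the same dosed dams, the colony being a mix of FVB/N and B6/129S6. *Insig1/2Δ/Δ* mice lost floxed *Insig1* through the same transgenes on an *Insig2*-/- background, which the *Insig* controls share. The driver acts in epithelium, so the endothelium of all 6 groups kept its own *Scap* or *Insig1* alleles. Deletion in the epithelium was incomplete according to the study. Each array is named here by the number in its label, with KO for a deleted lung and C for a control.

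Endothelial cells line the vessels of the lung, and in late gestation their capillaries come to lie against the thinning epithelium of the future air sacs. VEGF-A, which lung epithelium makes in quantity, binds the receptors VEGFR2 (*Kdr*) and VEGFR1 (*Flt1*) on endothelium, while angiopoietins bind TIE2 (*Tek*), whose partner is the orphan receptor TIE1. PECAM-1 and VE-cadherin (*Cdh5*) hold endothelial cells together, and endomucin (*Emcn*) is a sialomucin of capillary and venous surfaces. Carbonic anhydrase 4 (*Car4*) and apelin (*Apln*) mark the aerocytes, a capillary cell type specialised for gas exchange, although *Apln* is also made by sprouting endothelium elsewhere.

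Some arrays stood apart over the whole array, and the main results that rest on them are given with and without them. KO17 and KO18, both *ScapΔ/Δ* at PN1, correlated with each other at 0.9944 but with the other 16 arrays at 0.9312 to 0.9599, against 0.9729 to 0.9975 among those 16 arrays. Their medians were 7.67 and 7.70, against 7.42 to 7.50 on the other 16. The *Insig* arrays fell into 2 sets that cut across genotype, one with KO22, C19 and C20 and the other with KO23, KO24 and C21. Correlations were 0.984 to 0.9914 between the sets, and at least 0.996 within the first and 0.9932 within the second. Probe sets of the floxed genes *Scap* and *Insig1* were lower in every deleted lung than in its controls. *Scap* had 9.22 to 9.47 in *ScapΔ/Δ* lungs and 9.71 to 9.75 in control lungs at E18.5, and 9.53 to 9.65 in *ScapΔ/Δ* lungs and 9.76 to 9.92 in control lungs at PN1. *Insig1* had 8.21 to 8.58 in *Insig1/2Δ/Δ* lungs and 9.29 or more in control lungs. *Insig2*, knocked out in both *Insig* groups, had 8.96 to 9.09 in *Insig1/2Δ/Δ* lungs and 8.75 to 8.93 in control lungs.

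All 10 genes were well above the middle of every array. *Cdh5* and *Emcn* ranked highest, at the 97.7th percentile of their array or above on all 18 arrays, and *Pecam1* lay between 94.99 and 97.05. The lowest positions were 71.6 for *Car4*, on KO22, and 73.5 for *Flt1*, on KO12. Among them *Pecam1*, *Cdh5* and *Tie1*, which define endothelium, were at 85.4 or above on all 18 arrays, whereas *Vegfa* is chiefly a product of other lung cells. *Pecam1* and *Cdh5* varied least, over 0.38 and 0.37 log2 units across the 18 arrays. *Tek* and *Apln* ranged over 1.11 and 1.12, and *Car4* over 3.01, an amplitude that came from the *Insig* line. *Emcn* ranged over 0.52 on all arrays but over 0.20 on the 16 arrays without KO17 and KO18.

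**Figure D1:**
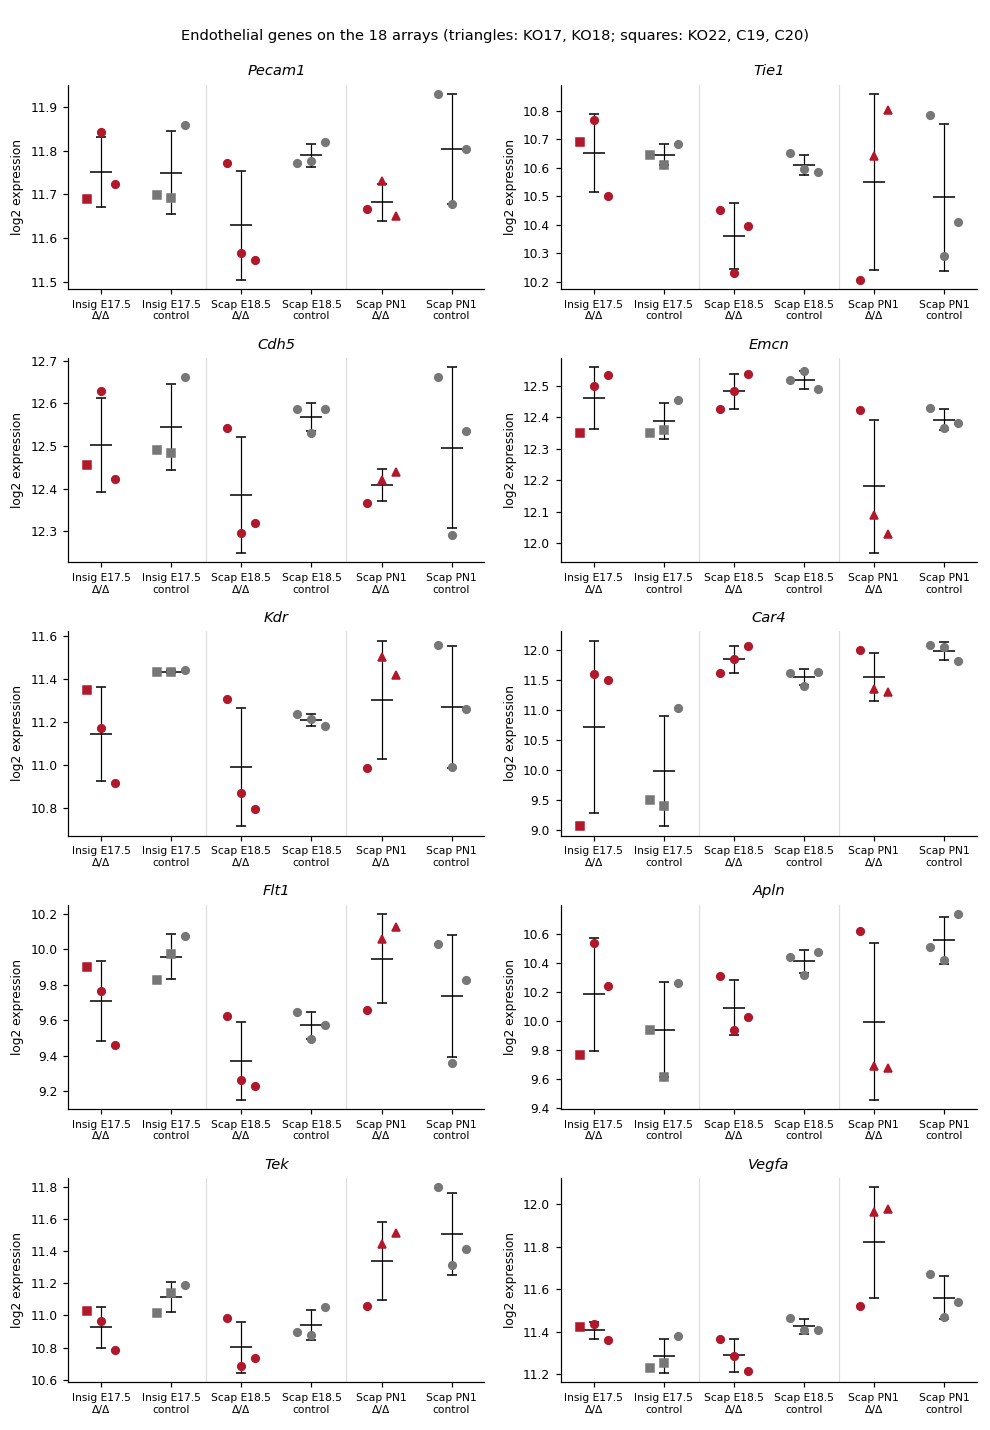
Log2 expression of the 10 genes on each of the 18 arrays, 1 panel per gene; points are single lungs, grouped by line, age and genotype, with deleted lungs (red) left of their controls (grey), and bars are mean ± SD (n = 3); triangles are KO17 and KO18, squares KO22, C19 and C20. *Car4* splits into 2 levels among the *Insig* arrays, with 9.07 to 9.50 on 3 arrays and 11.03 to 11.59 on the other 3, while *Pecam1* and *Cdh5* stay within 0.38 log2 units throughout.

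At E18.5, 9 of the 10 genes had a lower mean in *ScapΔ/Δ* than in control lungs, *Car4* being the exception, and none of the differences passed the test. After centring each array on its own median *Emcn* moved to 0.0027 and 8 of 10 were below 0. The median over the 10 genes was -0.17, against -0.041 over all 22800 probe sets tested, of which 58.3% were below 0. In this comparison 0.00877% of probe sets (2 of 22800) had an adjusted p under 0.05, and 9.24% had an unadjusted p under 0.05. In RNA of whole lung, fewer endothelial cells and less RNA per endothelial cell cannot be told apart, here or in any comparison that follows.

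Among the junction and surface genes, *Pecam1* (chr11:106654213-106715281 of GRCm38.p6) had 11.77, 11.57 and 11.55 in KO10, KO11 and KO12, against 11.77, 11.78 and 11.82 in C7, C8 and C9. *Cdh5* (chr8:104101613-104144504) had 12.54, 12.29 and 12.32 in *ScapΔ/Δ* lungs, against 12.59, 12.53 and 12.59 in control lungs. For both genes KO11 and KO12 lay below all controls, and KO10 lay close to them, for *Pecam1* at 11.772 just under C7 at 11.773. *Pecam1* differed by -0.16 (SE 0.09, adjusted p = 0.571) and *Cdh5* by -0.18 (SE 0.10, adjusted p = 0.579). *Emcn* (chr3:137341062-137431069) averaged 12.48 ± 0.05 in *ScapΔ/Δ* lungs and 12.52 ± 0.03 in control lungs (SD, n = 3 each), a difference of -0.04 with a 95% interval of -0.26 to 0.18.

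Among the receptors KO11 and KO12 again lay below all controls. *Kdr* (chr5:75932827-75979072) had 11.31, 10.87 and 10.80 in KO10, KO11 and KO12, against 11.24, 11.21 and 11.18 in the controls. *Tie1* (chr4:118471191-118489849) had 10.45, 10.23 and 10.40 in *ScapΔ/Δ* lungs, against 10.65, 10.59 and 10.59 in control lungs. *Tie1* was thus lower in all 3 deleted lungs, whereas for *Kdr* the lung KO10 was above every control. *Tie1* differed by -0.25 (SE 0.16, adjusted p = 0.606) and *Kdr* by -0.22 (SE 0.18, adjusted p = 0.673). *Flt1* (chr5:147561604-147726438) differed by -0.20 and *Tek* (chr4:94739086-94874976) by -0.14, with adjusted p of 0.708 and 0.748. Set against the control mean, KO10 lay between -0.16 and 0.09 for all 10 genes, whereas KO11 and KO12 were below it by 0.21 to 0.42 for *Pecam1*, *Cdh5*, *Kdr*, *Flt1*, *Tek* and *Tie1*.

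The ligands were lower in each deleted lung too. *Apln* (chrX:48025146-48034853) had 10.31, 9.94 and 10.03 in *ScapΔ/Δ* lungs, against 10.44, 10.32 and 10.47 in control lungs, and *Vegfa* (chr17:46016993-46032377) averaged 11.29 ± 0.08 in *ScapΔ/Δ* lungs and 11.43 ± 0.03 in control lungs (SD, n = 3 each). *Apln* differed by -0.32 (SE 0.22, adjusted p = 0.631) and *Vegfa* by -0.14 (SE 0.12, adjusted p = 0.688). *Car4* (chr11:84957754-84966054), which encodes an enzyme held at the capillary surface, went the other way with 11.61, 11.85 and 12.06 in *ScapΔ/Δ* lungs, against 11.61, 11.39 and 11.62 in control lungs, a difference of 0.30 (SE 0.19, adjusted p = 0.597). *Pecam1*, *Tie1*, *Apln* and *Vegfa* were the 4 of 10 genes without overlap between genotypes, all lower, where 21% of all probe sets were lower without overlap and 35.5% were without overlap in either direction. An exact permutation test on 3 against 3 lungs cannot go below p = 0.1, the value that these 4 genes reached. Every SE and interval given for E18.5 rests on a spread pooled over the 4 *Scap* groups, PN1 included. Without the deleted PN1 lung KO16 the E18.5 differences were unchanged. The SE was then 0.10 for *Apln* (adjusted p = 0.102), 0.07 for *Vegfa*, 0.12 for *Car4* (adjusted p = 0.135) and 0.05 for *Emcn*. For *Cdh5* it stayed at 0.10. None of the 10 genes passed at E18.5 in that fit.

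Of 54 further genes of endothelium or of its signals on 4 lists (junction and surface, receptors and co-receptors, ligands, transcription factors), 53 were tested. The ligands need not be made by endothelium. At E18.5, 40 of the 53 were below 0 in *ScapΔ/Δ* lungs, with a median of -0.14, against 58.3% of all probe sets. Lower in every deleted lung than in every control were 25, against 21% of all probe sets, but none passed the test. The lists differed, with 15 of 16 transcription factors and 12 of 13 receptors and co-receptors below 0, 13 and 5 of them without overlap. Junction and surface genes had 9 of 15 below 0 (5 without overlap) and ligands 4 of 9 (2 without overlap). Differences reached 0.31 among junction and surface genes, for *Gpihbp1*, and 0.65 among ligands, for *Apela*. *Gpihbp1* had 9.61, 10.20 and 10.51 in *ScapΔ/Δ* lungs, against 9.745 to 9.870 in control lungs. *Plvap*, which forms the diaphragms of fenestrae and caveolae, had 10.51, 10.40 and 10.63 in *ScapΔ/Δ* lungs, against 10.74, 10.80 and 10.93 in control lungs (adjusted p = 0.511). The apelin receptor *Aplnr* differed by -0.30, the transcription factor *Sox18* by -0.32 and the VEGF co-receptor *Nrp1* by -0.24, each lower in every deleted lung. Of 8 markers of general capillary cells, with *Plvap*, *Aplnr* and *Gpihbp1* among them, 5 were below 0 and 3 above. The summed level of 9 type II cell markers was 15.40 to 15.51 in *ScapΔ/Δ* lungs and 15.62 to 15.66 in control lungs on the log2 scale. Its part in these differences was not tested.

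**Figure D2:**
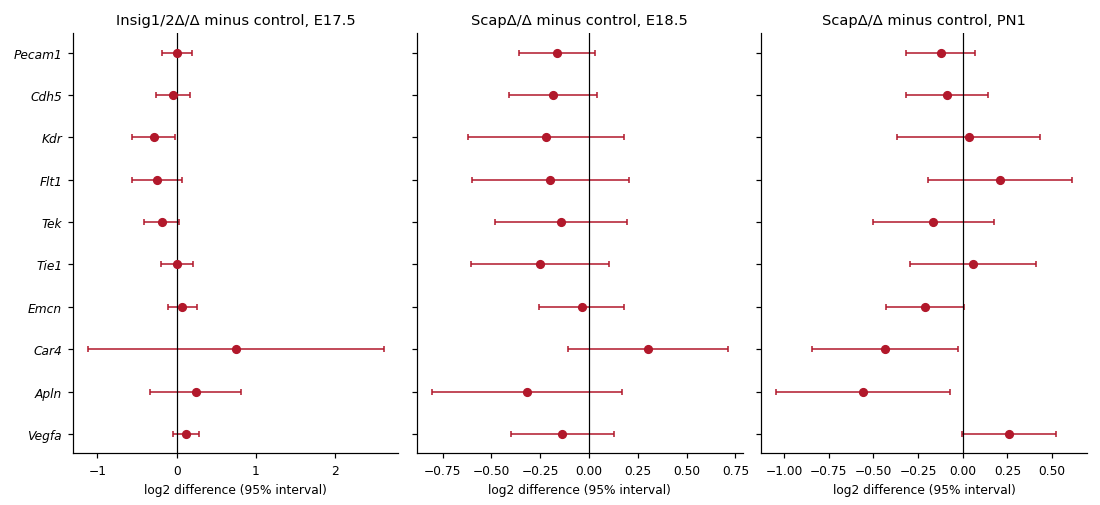
Deleted minus control difference (log2) of each of the 10 genes in the 3 comparisons of genotype; points are limma estimates and bars their 95% intervals, with 3 lungs per genotype in each. The intervals include 0 for all genes at E18.5, where the spread is pooled with that of the PN1 lungs. *Kdr* in the *Insig* line (-0.56 to -0.02) and *Apln* (-1.04 to -0.07) and *Car4* (-0.84 to -0.02) at PN1 are the exceptions in the other comparisons.

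At PN1 the deleted lungs divided, and the 4 genes with the lowest adjusted p divided with them. *Apln* had 10.62 in KO16, 9.69 in KO17 and 9.68 in KO18, against 10.51, 10.42 and 10.74 in C13, C14 and C15. *Car4* had 11.996, 11.34 and 11.29 in KO16, KO17 and KO18, against 12.08, 12.04 and 11.81 in control lungs. In each case KO16 lay within the range of the controls and KO17 and KO18 lay below all of them. *Emcn* had 12.42 in KO16, with 12.09 in KO17 and 12.03 in KO18, against 12.36 to 12.43 in control lungs. *Vegfa* went the opposite way, with 11.52 in KO16, 11.96 in KO17 and 11.98 in KO18, against 11.47 to 11.67 in control lungs, so that again only KO17 and KO18 lay outside the controls.

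None of the 10 genes passed the test at PN1, where 0.00877% of 22800 probe sets (2, both lower) were called and 32.3% had an unadjusted p under 0.05. Of the 10 genes 6 were below 0, with a median of -0.11, against 57.9% and -0.059 over all probe sets. Under median centring 8 were below 0, where the median over all probe sets was -0.193. Without KO17 and KO18 it was 7, with -0.02 over all probe sets. *Apln* differed by -0.56 (SE 0.22, adjusted p = 0.123), *Car4* by -0.43 (SE 0.19, adjusted p = 0.14), *Vegfa* by 0.26 (SE 0.12, adjusted p = 0.158) and *Emcn* by -0.21 (SE 0.10, adjusted p = 0.164). Without KO16 all 4 passed, *Apln* at -0.87 (adjusted p = 9.47e-05), *Vegfa* at 0.41 (adjusted p = 0.000664), *Emcn* at -0.33 (adjusted p = 0.000691) and *Car4* at -0.66 (adjusted p = 0.00129), but so did 14010 of the 22633 probe sets in that fit. Without KO17 and KO18 the differences of *Apln*, *Car4*, *Emcn* and *Vegfa* were 0.06, 0.02, 0.03 and -0.04, with the lone lung KO16 assumed to vary like the other groups. The values of these 4 genes at PN1 therefore rest on KO17 and KO18.

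For the remaining 6 genes the control lungs were themselves spread. *Flt1* had 9.66, 10.06 and 10.12 in KO16, KO17 and KO18, against 10.03, 9.36 and 9.82 in control lungs, so that KO17 and KO18 lay just above the highest control. *Kdr* had 10.99, 11.50 and 11.42 in KO16, KO17 and KO18, against 11.56, 10.99 and 11.26 in control lungs, and *Tie1* had 10.21, 10.64 and 10.81 in *ScapΔ/Δ* lungs, against 10.78, 10.29 and 10.41 in control lungs. C13 was the highest and C14 the lowest control for *Pecam1*, *Cdh5*, *Kdr*, *Flt1*, *Tek*, *Tie1* and *Emcn*. The differences were 0.03 for *Kdr* (95% interval -0.37 to 0.43), 0.06 for *Tie1* (-0.30 to 0.41), 0.21 for *Flt1* (-0.19 to 0.61), -0.17 for *Tek* (-0.50 to 0.17), -0.12 for *Pecam1* (-0.32 to 0.07) and -0.09 for *Cdh5* (-0.31 to 0.14). Those of *Kdr* and *Tie1* turned to -0.10 and -0.08 under median centring, and to -0.28 and -0.29 without KO17 and KO18. Without these arrays *Flt1* also turned, to -0.08, and *Tek* was at -0.45 (adjusted p = 0.557). None of the 10 genes separated the genotypes at PN1, whereas 16.6% of all probe sets did. KO16 was the lowest deleted lung for all 4 receptors.

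**Figure D3:**
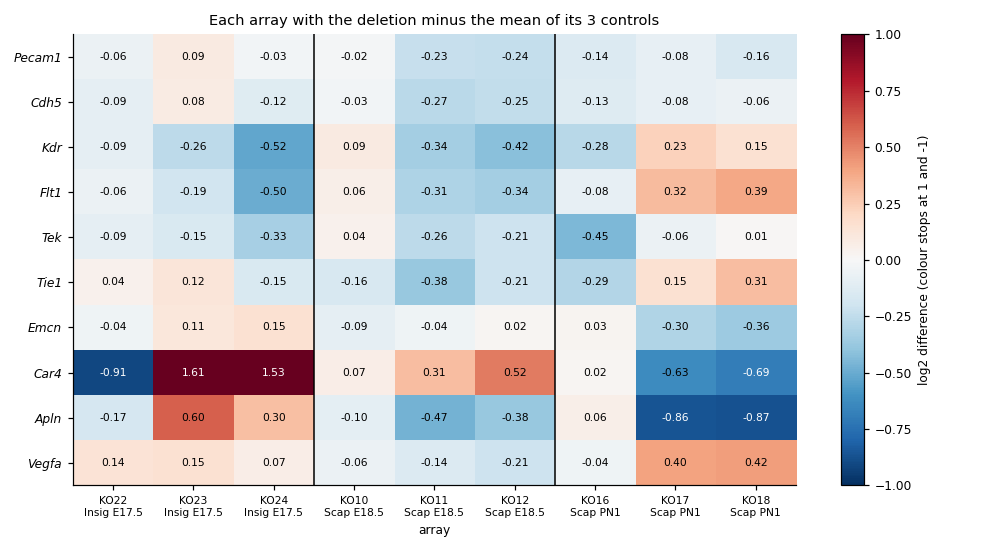
Each deleted lung minus the mean of its own 3 control lungs (log2) for the 9 deleted lungs, with the 10 genes down the page and the arrays across it; colour runs from lower (blue) to higher (red) and stops at 1 and -1. KO17 and KO18 share values of -0.86 and -0.87 for *Apln* and 0.40 and 0.42 for *Vegfa*, where KO16 has 0.06 and -0.04.

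Of the 53 partner genes tested, 40 were below 0 at PN1, against 57.9% of all probe sets, and none passed. Lower in every deleted lung than in every control were 18, against 11% of all probe sets. Under median centring 47 of the 53 were below 0, where the median over all probe sets was -0.193 in place of -0.059. Under quantile normalization 35 were below 0, with -0.101 over all probe sets. Again 40 of 53 were below 0 without KO17 and KO18, with a median of -0.10 in place of -0.18. Without KO16, 6 of the 53 rose and 28 fell, where 5458 of all 22633 probe sets in that fit rose and 8552 fell. *Plvap* was lower in KO16 as well, with 10.93, 10.69 and 10.62 in KO16, KO17 and KO18, against 11.41, 11.27 and 11.24 in control lungs, a difference of -0.56 (adjusted p = 0.083). *Sox18* had 10.70, 10.19 and 9.94 in *ScapΔ/Δ* lungs, against 11.10, 10.92 and 10.93 in control lungs (difference -0.70, adjusted p = 0.0897). The placental growth factor *Pgf*, a ligand of VEGFR1, had 9.79 in KO16 but 8.43 in KO17 and 8.27 in KO18, against 8.88, 9.62 and 9.57 in control lungs. Relative to the control mean KO16 alone was at -0.38 for *Plvap*, -0.28 for *Sox18* and 0.44 for *Pgf*. *Angpt2*, which opposes angiopoietin 1 at TIE2 in many settings, had 8.21, 7.47 and 7.33 in *ScapΔ/Δ* lungs, against 8.67, 8.28 and 8.25 in control lungs (adjusted p = 0.0914), with KO16 at -0.19 relative to their mean.

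Leukocyte markers lay below the controls in KO17 and KO18 alone, whereas type I and type II cell markers did so in KO16 as well. Summed levels of leukocyte markers were 13.55, 12.86 and 12.79 in KO16, KO17 and KO18, against 13.47 to 13.57 in control lungs, and those of type I cell markers 15.23, 15.03 and 14.99, against 15.26 to 15.31. Type II cell markers summed to 15.36, 15.12 and 15.08 in *ScapΔ/Δ* lungs and to 15.57 to 15.64 in control lungs. Smooth muscle and pericyte markers, at 13.84 to 14.02 in *ScapΔ/Δ* lungs and 13.85 to 14.01 in control lungs, overlapped. The part of these cells in the values of the 10 genes was not tested. *Apln* and *Car4* belong to the aerocyte list, and its summed level includes both, so it is no separate measure of them. That level was 14.66, 14.42 and 14.45 in KO16, KO17 and KO18, against 14.71 to 14.81 in control lungs. For the other genes of the list, the mean of KO17 and KO18 was set against the control mean. *Fibin* was at -0.99, *Ednrb* at -0.39, *Igfbp7* at -0.33, *Chst1* at -0.19, *Emp2* at -0.10 and *Tbx2* at 0.21. *Emp2* stands on both the aerocyte and the type I list.

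The start regions of genes that divided these lungs are shown because SREBP factors, which SCAP activates, and factors of the ETS family, which act widely in endothelium, bind known DNA letters. RefSeq windows were found for 8 of the 10 genes, and the 250 bases before the annotated start on GRCm38.p6 are given for those 4 whose window lies outside the annotated gene: *Apln* (chrX:48034854-48035103, minus strand), *Car4* (chr11:84957504-84957753, plus strand), *Vegfa* (chr17:46032378-46032627, minus strand) and *Tie1* (chr4:118489850-118490099, minus strand), the last for its count of ETS letters. Each reads 5′ to 3′, and capitals mark the ETS core GGAA on either strand.
Apln: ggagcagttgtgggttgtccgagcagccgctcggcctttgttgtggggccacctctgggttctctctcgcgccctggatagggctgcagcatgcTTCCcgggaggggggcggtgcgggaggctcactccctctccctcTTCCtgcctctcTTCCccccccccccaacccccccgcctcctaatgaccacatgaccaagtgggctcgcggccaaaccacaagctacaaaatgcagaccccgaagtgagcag
Car4: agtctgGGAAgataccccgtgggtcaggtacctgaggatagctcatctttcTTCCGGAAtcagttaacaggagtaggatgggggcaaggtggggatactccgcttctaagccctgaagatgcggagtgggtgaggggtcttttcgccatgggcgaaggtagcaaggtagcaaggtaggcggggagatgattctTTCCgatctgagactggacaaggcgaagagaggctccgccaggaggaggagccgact
Vegfa: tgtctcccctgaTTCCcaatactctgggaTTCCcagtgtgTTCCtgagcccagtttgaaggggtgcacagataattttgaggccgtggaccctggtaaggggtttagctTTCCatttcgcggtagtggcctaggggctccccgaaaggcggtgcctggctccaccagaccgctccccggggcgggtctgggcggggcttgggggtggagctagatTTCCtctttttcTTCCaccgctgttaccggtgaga
Tie1: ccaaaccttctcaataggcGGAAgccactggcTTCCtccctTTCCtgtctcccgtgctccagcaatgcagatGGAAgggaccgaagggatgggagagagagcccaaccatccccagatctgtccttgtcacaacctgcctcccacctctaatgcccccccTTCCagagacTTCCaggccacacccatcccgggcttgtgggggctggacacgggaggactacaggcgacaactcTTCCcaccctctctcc
The ETS core matched 3 times for *Apln*, 4 times for *Car4*, 6 times for *Vegfa* and 7 times for *Tie1*, which was picked because it had the most. In the windows not printed it matched 4 times each for *Emcn*, *Flt1* and *Kdr*, and 2 times each for *Tek* and another *Vegfa* transcript. Across all 32851 windows of this length 93.4% held at least 1 match, the median was 3, and 18% held 5 or more. The sterol regulatory element letters TCACNCCAC matched on neither strand in any window of the 8 genes, against 1.05% of all windows. The hypoxia response core ACGTG matched once, 211 bases before the start of another *Vegfa* transcript (16.6% of all windows), and the GATA core GATAA once, 181 bases before the start in the *Vegfa* window printed here (22.6%). Matches are matches of letters and say nothing of binding.

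In the *Insig* line at E17.5 none of the 10 genes passed the test, and 0% of 22775 probe sets were called by limma, with 4.1% (933) at an unadjusted p under 0.05; the unmoderated test of the methods called 0 too. Of the 10 genes 4 had a lower and 6 a higher mean in *Insig1/2Δ/Δ* than in control lungs, with a median of 0.00, against 0.014 over all probe sets, of which 45.6% were below 0. *Kdr* was the only one that separated the genotypes, with 11.35, 11.17 and 10.92 in KO22, KO23 and KO24, against 11.44, 11.43 and 11.44 in C19, C20 and C21. The SD was 0.22 among the deleted lungs and 0.01 among the controls. The difference was -0.29 (SE 0.11, adjusted p = 0.758), where 4.22% of probe sets were lower without overlap and 10% were without overlap in either direction. *Flt1* had 9.90, 9.76 and 9.46 in *Insig1/2Δ/Δ* lungs, against 9.82, 9.97 and 10.08 in control lungs, and *Tek* had 11.02, 10.97 and 10.78 in *Insig1/2Δ/Δ* lungs, against 11.01, 11.14 and 11.19 in control lungs. Both overlapped between genotypes, at -0.25 and -0.19, and KO24 had the lowest value of the line for all of *Kdr*, *Flt1*, *Tek* and *Tie1*.

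Within the 2 sets of *Insig* arrays the difference of 3 receptors was not of one size. *Kdr* was at -0.08 for KO22 minus the mean of C19 and C20, and at -0.40 for the mean of KO23 and KO24 minus C21. *Flt1* was at 0.00 and -0.46, *Tek* at -0.05 and -0.32 and *Tie1* at 0.06 and -0.05 in the same order of sets. With the set as a block *Kdr* differed by -0.24 (adjusted p = 0.785). *Pecam1*, *Cdh5*, *Tie1*, *Emcn*, *Apln* and *Vegfa* had differences between -0.04 and 0.24 in the fit without the block. The 0.24 is that of *Apln*, which was at 0.06 (adjusted p = 0.932) with the block.

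*Car4* took 2 levels in this line, and they followed the sets and not the genotype. It had 9.07 in KO22, 11.59 in KO23 and 11.50 in KO24, against 9.50 in C19, 9.40 in C20 and 11.03 in C21. The 3 lower lungs are KO22, C19 and C20, which form the first set. The difference between genotypes was 0.74 (SE 0.78, 95% interval -1.12 to 2.61, adjusted p = 0.792), so that a change in either direction of over 1 log2 unit is inside the interval. With the set as a block it was 0.07 (SE 0.18, adjusted p = 0.95), from -0.38 within the first set and 0.51 within the second. At E18.5 the 6 *Scap* arrays had 11.39 to 12.06, side by side with 11.03 to 11.59 in the second *Insig* set and 9.07 to 9.50 in the first. *Apln* was ordered in the same way, and the sets did not overlap for it. It had 9.77 in KO22, 10.54 in KO23 and 10.24 in KO24, against 9.94, 9.62 and 10.26 in C19, C20 and C21. Second set minus first, *Car4* was at 2.05, rank 8 by size of 22775 probe sets, and *Apln* at 0.57, rank 1383. Some markers of other cells divided too, with the highest values of their lists at 1.21 for *Aqp5* of type I cells and 0.80 for *Sftpa1* of type II cells. The medians of these lists were 0.16 and 0.24, and their lowest values -0.34 for *Akap5* and -0.11 for *Abca3*. Above 0 were 7 of 7 leukocyte, 8 of 10 type I and 7 of 9 type II cell markers, but 1 of 6 general lung epithelium markers. Of all 22775 probe sets, 12094 were above 0. The labels give one age for all 6 lungs, and what the sets stand for was not tested.

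Between E18.5 and PN1 the lungs pass through birth, so age and air breathing cannot be told apart. In control lungs *Tek* had 11.80, 11.31 and 11.41 at PN1, against 10.90, 10.88 and 11.05 at E18.5. All 3 lungs at PN1 were above all 3 at E18.5, a difference of 0.56 (SE 0.15) that missed the threshold (adjusted p = 0.0915). The call depended on an array of neither group, since without KO16 both *Tek* (adjusted p = 0.0141) and *Car4* (adjusted p = 0.0362) passed in control lungs at unchanged differences. *Car4* and *Vegfa* were also higher without overlap, by 0.44 (adjusted p = 0.326) and 0.14 (adjusted p = 0.803), and *Emcn* was lower without overlap, at -0.13 (adjusted p = 0.744). With all 12 *Scap* arrays none of the 10 genes passed in control lungs, where 2.58% of probe sets (589) did and 13.5% had an unadjusted p under 0.05. Without overlap 3 of 10 were higher and 1 lower, against 17.6% and 16.5% of all probe sets. *Pecam1*, *Cdh5*, *Kdr* and *Tie1* lay between -0.12 and 0.06, with intervals that reach 0.46 for *Kdr*.

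In *ScapΔ/Δ* lungs 4 of the 10 genes passed between the ages, where 37.6% of all probe sets (8581 of 22800) did, 17.5% higher and 20.1% lower, and 52.5% had an unadjusted p under 0.05. *Vegfa* had 11.52, 11.96 and 11.98 at PN1, against 11.37, 11.29 and 11.21 at E18.5, and rose by 0.53 (SE 0.12, adjusted p = 0.0131). *Tek* had 11.06, 11.45 and 11.51 at PN1, against 10.98, 10.69 and 10.73 at E18.5, and rose by 0.54 (SE 0.15, adjusted p = 0.0261). *Flt1* had 9.66, 10.06 and 10.12 at PN1, against 9.63, 9.26 and 9.23 at E18.5, and rose by 0.57 (SE 0.18, adjusted p = 0.0339). For the 3 genes the nearest lungs of the 2 ages were KO16 and KO10, at 9.66 and 9.63 for *Flt1*. The 4 genes were also those without overlap between the ages, 3 higher and 1 lower, against 16.7% and 17.3% of all probe sets. *Emcn* fell by 0.30 (SE 0.10, adjusted p = 0.0376), with 12.42, 12.09 and 12.03 at PN1, against 12.43, 12.48 and 12.54 at E18.5. Without KO17 and KO18 none of the 4 passed, at 0.23 for *Vegfa*, 0.26 for *Tek*, 0.29 for *Flt1* and -0.06 for *Emcn*. Under median centring *Vegfa* at 0.36 (adjusted p = 0.0193) and *Emcn* at -0.48 (adjusted p = 0.0289) passed, and *Tek* and *Flt1* did not. Leaving out KO12, KO17 or KO18 alone ended the call of *Vegfa*, and *Tek* and *Flt1* lost theirs without any of these 3 or KO11, *Flt1* without C9 as well. Of these 4 calls that of *Emcn* was lost most often, in 10 of the 12 fits that left out 1 array (highest adjusted p = 0.141) and under quantile normalization.

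**Figure D4:**
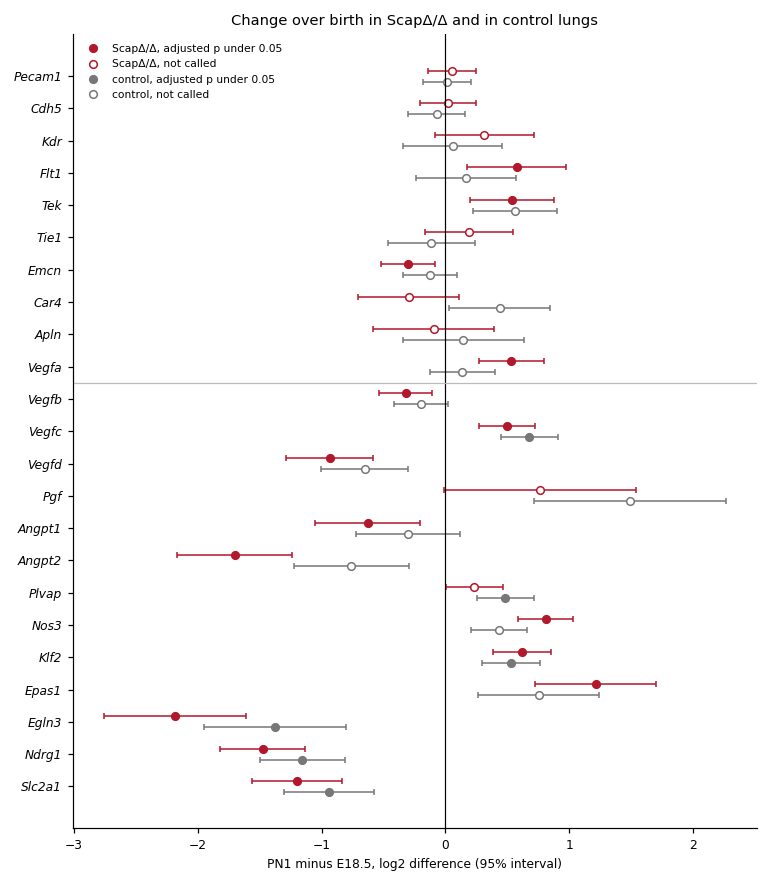
PN1 minus E18.5 difference (log2) of the 10 genes and, under the grey line, of further named genes, in *ScapΔ/Δ* lungs (red) and in control lungs (grey); filled points have an adjusted p under 0.05, points are limma estimates and bars their 95% intervals, from 3 lungs per age and genotype. *Tek* lies at 0.54 in *ScapΔ/Δ* lungs and 0.56 in control lungs, while *Car4* lies at -0.30 and 0.44 and *Vegfa* at 0.53 and 0.14; without KO17 and KO18 the *ScapΔ/Δ* values of these 2 genes are 0.16 and 0.23.

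The comparisons of genotype and of age share arrays. The difference between the *Scap* effects at the 2 ages was tested directly, and no gene passed (0% of 22800 probe sets by limma, with 18.3% at an unadjusted p under 0.05). *Car4* had the largest value of the 10 genes at -0.73 (SE 0.26, adjusted p = 0.265), being above the controls at E18.5 and below them at PN1. *Vegfa* had 0.40 (SE 0.17, adjusted p = 0.265) and *Flt1* 0.41 (SE 0.26, adjusted p = 0.305). *Tek* had -0.03 with a 95% interval of -0.50 to 0.45. The values without KO17 and KO18 were -0.28 for *Car4*, 0.10 for *Vegfa* and 0.12 for *Flt1*, and none passed. Without KO16 *Car4* at -0.96 (adjusted p = 0.000975) and *Vegfa* at 0.55 (adjusted p = 0.0009) passed, with 5 of the 10 genes and 13219 of 22633 probe sets.

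Of the 53 partner genes 5 rose and none fell between E18.5 and PN1 in control lungs, against 1.19% and 1.39% of all probe sets. *Angptl4*, an inhibitor of lipoprotein lipase, had 10.06, 9.99 and 9.97 at PN1, against 8.22, 8.15 and 8.15 at E18.5, and rose by 1.83 (adjusted p = 0.00289). *Vegfc*, the lymphatic growth factor, rose by 0.68 (adjusted p = 0.00893), the flow-responsive transcription factors *Klf4* and *Klf2* by 0.60 (adjusted p = 0.0244) and 0.53 (adjusted p = 0.0292), and *Plvap* by 0.48 (adjusted p = 0.0378). *Klf2* lost its call in 7 and *Plvap* in 9 of the 12 fits that left out 1 array. In *ScapΔ/Δ* lungs 15 of the 53 rose and 8 fell, against 17.5% and 20.1% of all probe sets. Under median centring 7 rose and 11 fell, where 1994 and 6655 of all 22800 probe sets did. Fewer passed without KO17 and KO18, among the 53 and over all probe sets alike. *Angptl4* rose in *ScapΔ/Δ* lungs by 1.18 (adjusted p = 0.00678), with 10.21 in KO16 but 9.25 and 9.20 in KO17 and KO18. *Angpt2* fell by 1.70 (adjusted p = 0.00158), or by 1.16 without KO17 and KO18. *Nos3*, the nitric oxide synthase of endothelium, rose by 0.81 (adjusted p = 0.00161), and by 0.64 (adjusted p = 0.0078) without them.

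*Vegfa* is also a textbook target of the hypoxia-inducible factors, and 12 such targets were listed, which are not all that are known. *Angptl4*, which rose over birth, stands on the ligand list and is not among the 12. In control lungs 10 of the 12 were below 0 at PN1 relative to E18.5, *Vegfa* being 1 of the 2 above it; 5 of the 12 fell and none rose, against 1.39% and 1.19% of all probe sets, with a list median of -0.53, while *Vegfa* was at 0.14. *Ankrd37* fell by 1.58 (adjusted p = 0.000672), *Egln3*, a prolyl hydroxylase, by 1.37 (adjusted p = 0.0224), *Ndrg1* by 1.16 (adjusted p = 0.00521) and the glucose transporter *Slc2a1* by 0.94 (adjusted p = 0.0155). In *ScapΔ/Δ* lungs 8 of the 12 fell and *Vegfa* was the 1 that rose, against 20.1% and 17.5% of all probe sets, with a list median of -1.07. Leaving out KO17 and KO18, *Pgk1* was at -0.13, *Ldha* at -0.05 and *Vegfa* at 0.23, with a list median of -0.39. *Slc2a1* had 10.53, 9.96 and 10.07 in KO16, KO17 and KO18, against 11.61, 11.43 and 11.11 in *ScapΔ/Δ* lungs at E18.5. In KO17 and KO18 the glucose transporter was thus below every PN1 control (10.34 to 10.67) where *Vegfa* was above every one.

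Across the 6 groups the order of the means differed between genes, and the place of *ScapΔ/Δ* lungs at PN1 in it rests on KO17 and KO18 for several. *ScapΔ/Δ* lungs at E18.5 had the lowest group mean for *Pecam1*, *Cdh5*, *Kdr*, *Flt1*, *Tek* and *Tie1*, that is for 6 of the 7 junction, surface and receptor genes, *Emcn* being lowest in *ScapΔ/Δ* lungs at PN1. The neighbours in these orders mostly differed by less than the spread of their lungs: *Kdr* averaged 10.99 ± 0.28 in *ScapΔ/Δ* lungs at E18.5, next to 11.15 ± 0.22 in *Insig1/2Δ/Δ* lungs (SD, n = 3 each). *Tek* was highest in PN1 controls (11.51 ± 0.26) and next in *ScapΔ/Δ* lungs at PN1 (11.34 ± 0.24), both above the 10.80 to 11.12 of the other 4 group means. *Vegfa* was highest in *ScapΔ/Δ* lungs at PN1 (11.82 ± 0.26), followed by PN1 controls (11.56 ± 0.10), but KO16 alone had 11.52. Likewise KO16 had 12.42 for *Emcn*, against a mean of 12.39 in PN1 controls, and 11.06 for *Tek*, against a mean of 11.12 in *Insig* controls. *Car4* was lowest in the *Insig* controls (9.97 ± 0.92) and *Insig1/2Δ/Δ* lungs (10.72 ± 1.43), whose spread covers the 2 levels given above.

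Over the 16 arrays other than KO17 and KO18, the mean of *Pecam1*, *Cdh5*, *Kdr*, *Flt1*, *Tek*, *Tie1* and *Emcn* was most like *Spred2* (Pearson r 0.98), *Slc29a3* (0.97), *Mgrn1* (0.96), *Zdhhc8* (0.95) and *Gna12* (0.95) among 15201 genes. These values describe 16 arrays that share line, age and set, and carry no p. Of the members, which are part of the mean apart from the last 3, *Kdr* had 0.93, *Flt1* 0.91, *Cdh5* 0.88, *Pecam1* 0.87, *Tie1* 0.80, *Tek* 0.74 and *Emcn* -0.30, with *Vegfa* at 0.49, *Apln* at 0.18 and *Car4* at -0.28. Among the 15201 genes *Kdr* ranked 23, *Flt1* 47, *Cdh5* 112, *Pecam1* 142, *Tie1* 475 and *Tek* 883. The order of arrays in the mean was thus not particular to the receptors and junction genes. *Emcn* and *Car4* did not share it.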

How the data were processed

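Total RNA of whole lung, 3 lungs per group, was hybridized to Mouse Gene 1.0 ST arrays. The log2 expression values were used as deposited by the authors, with later steps of theirs run in GeneSpring GX. How probes were summarized and arrays normalized is not given in the sources used here. Arrays have no depth, and their number limits the precision. Groups were taken from the sample labels, and 0 value columns were unmapped.

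Following the methods of the study, a probe set was kept when it reached the 35th percentile of an array on 66% or more of the arrays fitted. Linear models with a mean per group were fitted by limma 3.58.1 (R 4.3.3), one over 12 *Scap* arrays and 4 groups with 22800 probe sets kept, the other over 6 *Insig* arrays and 2 groups with 22775. Every adjusted p is that of limma's moderated test with Benjamini-Hochberg adjustment over all probe sets of the fit, called under 0.05, and errors beside differences are standard errors. The exact permutation test was two-sided. Each fit was also run on simulated data, for the PN1 comparison of the *Scap* fit and for the *Insig* comparison. The simulated noise was independent between arrays. It held no shared shift like that of KO17 and KO18 or of the *Insig* sets, so it cannot speak to results that rest on them.

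The 10 genes and all lists were chosen with earlier results of these data known. Besides the 10 genes, the text names fixed partner genes, up to 4 genes per list among those with the largest changes past the threshold, and the 5 genes most like the mean of 7 members. Summed marker levels are log2 of summed linear values. Of 147 listed genes besides the members 138 had a probe set with 1 symbol. Probe sets with several symbols were left out, as were the arrays of small RNAs. Promoter windows are from RefSeq on GRCm38.p6. Alternatives changed the filter, the normalization, the arrays in the fit, the test, array weights and the arrays left out. Python 3.11.15 with pandas 2.3.3, numpy 2.4.6, scipy 1.17.1 and matplotlib 3.10.9 made the tables and plots.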

Additional observations from a re-analysis of the deposited data

How the results depend on the processing

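Over the alternatives other than leaving out 1 array, 480 of 550 values of single genes kept their direction and side of the threshold, 15 lost and 26 gained a call, and 29 turned; over the fits that left out 1 array these were 596, 22, 15 and 27 of 660. The cause of these changes was not tested. Numbers of probe sets called are given in the order E18.5, PN1, controls over birth, *ScapΔ/Δ* over birth where several changed. With array weights, which gave KO16 a weight of 0.0489 and KO17 one of 10, they were 2558, 15526, 2846 and 17351, with 14685 for the difference between ages and 8366 for the *Insig* line. With all 18 arrays in 1 fit they were 5 at E18.5 and 2995 at PN1, and with only the 2 groups compared 1, 0, 2552 and 64. The Student test, which the methods use for the *Insig* line alone, gave 0 at E18.5, 0 at PN1 and 5 in *ScapΔ/Δ* over birth, and was not run for the difference between ages. Without the filter 1 was called at E18.5 and 18 at PN1, with median centring 0 at E18.5 and 292 in controls over birth, and with quantile normalization 1 at E18.5. Without KO17 and KO18 the counts were 0 at PN1 and 1414 in *ScapΔ/Δ* over birth. Leaving out 1 array gave 0 to 99 at E18.5, 1 to 14010 at PN1 (the highest without KO16), 140 to 2718 in controls and 1716 to 16316 in *ScapΔ/Δ* over birth, 0 to 13219 for the difference between ages, and 0 to 0 in the *Insig* line.

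Turned values, as log2 differences, were the following. Array weights turned *Tek* in the difference between ages to 0.10 and *Cdh5* in the *Insig* line to 0.099. Median centring turned *Cdh5* and *Pecam1* to -0.15 and -0.12 in *ScapΔ/Δ* over birth and to -0.078 and -0.13 in the difference between ages, *Tie1* and *Kdr* to -0.078 and -0.10 at PN1, and *Emcn* to 0.0027 at E18.5. Quantile normalization turned *Pecam1* in the *Insig* line to -0.025, *Tek* in the difference between ages to 0.11 and *Apln* in *ScapΔ/Δ* over birth to 0.02. The set of *Insig* arrays as a block turned *Pecam1* to -0.041. Without KO17 and KO18, *Vegfa*, *Apln*, *Car4*, *Emcn*, *Tie1*, *Flt1* and *Kdr* were -0.041, 0.062, 0.02, 0.03, -0.29, -0.079 and -0.28 at PN1. In *ScapΔ/Δ* over birth *Car4*, *Apln*, *Tie1*, *Cdh5* and *Kdr* were then 0.16, 0.52, -0.15, -0.019 and -0.0021, and in the difference between ages *Kdr*, *Tie1*, *Emcn* and *Apln* were -0.061, -0.039, 0.067 and 0.38. Leaving out 1 array gave -0.044 to 0.056 for *Pecam1*, -0.11 to 0.015 for *Cdh5* and -0.051 to 0.083 for *Tie1* in the *Insig* line, and -0.11 to 0.19 for *Kdr* and -0.071 to 0.23 for *Tie1* at PN1. It gave -0.048 to 0.078 for *Pecam1*, -0.15 to 0.03 for *Cdh5* and -0.086 to 0.20 for *Kdr* in controls over birth, and -0.022 to 0.10 for *Cdh5* and -0.41 to 0.062 for *Apln* in *ScapΔ/Δ* over birth. In the difference between ages it gave -0.025 to 0.11 for *Pecam1*, -0.0073 to 0.18 for *Cdh5* and -0.12 to 0.12 for *Tek*. Where an arm was left with 1 lung, that lung was assumed to vary like the other groups. No paired analysis was possible because each array carries a number of its own, so that the groups share none. A mean over several probe sets was not run, as each of the 10 genes has 1 probe set.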
